A study of Ovis aries with 12 samples.

Results

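The miR-26 family was described in cultured endothelial cells of the ovine main pulmonary artery. An entry of the deposited count table was taken as a member when 1 of its names was miR-26a, miR-26b or miR-26c, whatever its species prefix, arm or copy number. The rule found 4 of the 470 entries: oar-miR-26a, oar-miR-26b, bta-miR-26c and an entry for the 3p arm of miR-26a-1 under human, mouse and macaque names, called hsa-miR-26a-1-3p here. All 4 passed the filter on low counts, which left 468 entries. The prefixes oar, bta and hsa stand for sheep, cow and human.

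The PPHN group (persistent pulmonary hypertension of the newborn) held 6 libraries, numbered 7 to 12, from lambs whose ductus arteriosus had been tied in the womb at about 125 days of gestation and stayed closed for 5 to 7 days. The control group held 6 libraries, numbered 1 to 6, from lambs with a sham operation. All cells were released with 0.1% collagenase, purified on beads carrying an antibody to CD31, an endothelial surface protein, and cultured in medium with serum for 2 to 5 passages before RNA extraction. Whether the 6 libraries of a group are 6 lambs is not stated in the labels, so the spread between libraries may be partly technical.

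Mature miRNAs guide Argonaute proteins to messages that pair with the seed, a short stretch near the 5′ end of the miRNA. In mammals, miR-26a and miR-26b share their seed and differ in few bases outside it, so they are thought to address largely the same messages. They are known to lie in introns of the genes of small C-terminal domain phosphatases, CTDSPL, CTDSP2 and CTDSP1. In human and mouse cells miR-26 represses the histone methyltransferase EZH2 and, in endothelial cells, the BMP signal mediator SMAD1. In the sheep gene table of RefSeq (ARS-UI_Ramb_v3.0), 2 miR-26 genes were listed: MIR26A lay within the span of CTDSP2 and MIR26B within that of CTDSP1. That table was used only for gene names and neighbourhood, since the build behind the deposited counts is not given in the sources used here.

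Levels are given as CPM, counts per 1000000 counts of all tested entries, after TMM scaling, which corrects each library for its composition. The total over all entries ran from 2250077 to 17740932 counts in PPHN libraries and from 4101316 to 11171643 counts in control libraries. Every library had at least 4849 counts of oar-miR-26b and at least 61292 of oar-miR-26a, so that counting alone gives an error of at most 1.44% for miR-26b and 0.404% for miR-26a. Intervals and floors cover counting error only, since reads without molecular identifiers are not independent molecules.

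The endothelial label was first set against miR-126, the defining endothelial miRNA. The summed level of the 3 entries named miR-126 without a letter was 8.68 CPM in PPHN 8, 10.9 CPM in PPHN 11 and 10.7 CPM in control 2, against 1266 to 2812 CPM in the other PPHN libraries and 364 to 4258 CPM in the other controls. Another 3 entries carry the names miR-126a or miR-126b and hold most of the counts, led by mmu-miR-126b-3p. With these included, the sum was 203 CPM in PPHN 8, 187 CPM in PPHN 11 and 172 CPM in control 2, against 28926 to 64404 CPM in the other PPHN libraries and 10956 to 102467 CPM in the other controls. By this marker these 3 libraries go against their label, and the values of miR-26a, miR-26b and their ratio are also given without them. In cultures measured as a whole, fewer cells of a type and less RNA per cell cannot be told apart.

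oar-miR-26a was the major form of the family, ranked 9 to 12 among all entries in PPHN libraries and 10 to 14 in control libraries. Its level was 21501, 24186, 24512, 21390, 25070 and 23565 CPM in PPHN 7 to 12, against 13049, 12607, 23694, 23298, 15685 and 16934 CPM in control 1 to 6. After TMM scaling the PPHN libraries lay close together. Among the controls, control 3 and control 4 stood at the PPHN level and the other 4 stood below all PPHN libraries, so the groups overlapped. This pattern moved with the scaling. As CPM of the unscaled library totals, miR-26a lay between 18517 and 27553 in PPHN and between 13048 and 25793 in control. There control 4 (25793) and control 5 (19967) lay inside the PPHN range, and control 3 (18465) lay just below it. The mean was 23371 ± 1569 CPM over the PPHN and 17544 ± 4885 CPM over the control libraries (SD, n = 6 each), and the edgeR fit gave a log2 fold change of 0.41 (SE 0.18), or 1.33-fold higher in PPHN. Without the 3 libraries with little miR-126 (control 2, PPHN 8 and PPHN 11), the log2 fold change was 0.27 (SE 0.19).

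oar-miR-26b was the minor form and differed the other way. Its level was 2062, 1757, 1957, 1813, 1961 and 1950 CPM in PPHN 7 to 12, against 2552, 2709, 2916, 2906, 2340 and 3187 CPM in control 1 to 6. The ranges did not overlap, all PPHN libraries being the lower, with PPHN 7 at 2062 CPM and control 5 at 2340 CPM nearest to each other. Within its library, miR-26b ranked 42 to 49 among all entries in PPHN and 34 to 41 in control. The mean was 1917 ± 111 CPM over the PPHN and 2768 ± 300.1 CPM over the control libraries (SD, n = 6 each), a log2 fold change of -0.53 (SE 0.12). The groups were separate without scaling too: as CPM of the unscaled library totals, miR-26b lay between 1478 and 2155 in PPHN and between 2273 and 3346 in control. Without control 2, PPHN 8 and PPHN 11 the log2 fold change was -0.55 (SE 0.15).

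**Figure D1:**
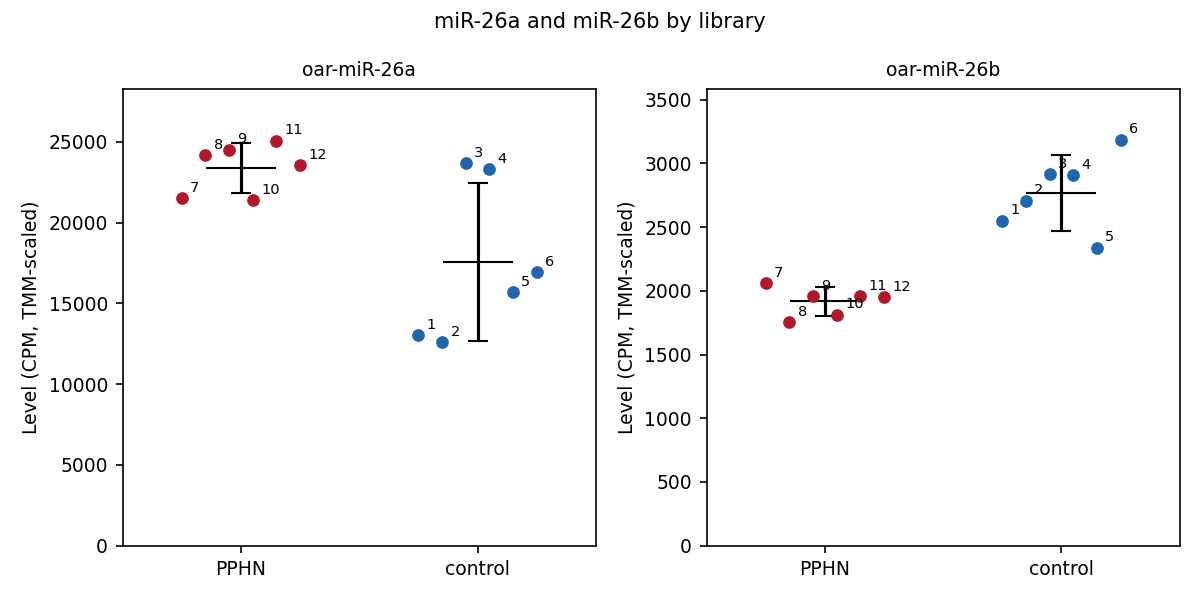
Level of oar-miR-26a (left) and oar-miR-26b (right) in CPM after TMM scaling, on linear axes from 0; each point is 1 library with its number, and the line and bars are the group mean and SD (n = 6). For miR-26a, control 3 and control 4 reach the PPHN libraries; for miR-26b the highest PPHN library, at 2062 CPM, is below the lowest control library, at 2340 CPM.

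The family was selected on these measured levels, miR-26b being lower and miR-26a higher in PPHN in earlier results of the same counts, so the differences are given as a description with no p-value of their own. Of the 468 tested entries, 3 did not overlap between groups and were lower in PPHN, which is 0.641%, and another 3, again 0.641%, were higher without overlap, 6 or 1.28% in all. Among the 4 members, 1 was in the first set (miR-26b) and 0 in the second. At a Benjamini-Hochberg adjusted p of 0.05, edgeR's quasi-likelihood test called 0 entries (0%), with 49 at an unadjusted p under 0.05. On the same counts DESeq2 called 12 (2.56%), 1 of them a member, miR-26b, and limma-voom called 0, with 44 at an unadjusted p under 0.05. Since the choice of the family used this contrast, nothing is read from the members' share of these counts. The authors' deposited table gives log2 fold changes of 0.44 by DESeq, 0.44 by DESeq2 and 0.41 by edgeR for oar-miR-26a. For oar-miR-26b the authors' deposited table gives -0.51, -0.51 and -0.53 by the same tools. Its header does not name the direction, but the signs matched those of PPHN over control in 464 of 468 entries for its edgeR column.

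A ratio of the 2 forms within a library needs no scaling. The counts of oar-miR-26a per count of oar-miR-26b were 10.4, 13.8, 12.5, 11.8, 12.8 and 12.1 in PPHN 7 to 12, against 5.11, 4.65, 8.12, 8.02, 6.70 and 5.31 in control 1 to 6. All 6 PPHN ratios were above all 6 control ratios, and the nearest pair was PPHN 7 at 10.4 and control 3 at 8.12. The family was selected with miR-26b lower and miR-26a higher in PPHN, which favours a higher ratio there. The separation is thus no independent result, and how many other pairs of entries separate the groups was not counted. The mean ratio was 12.2 ± 1.11 in PPHN and 6.32 ± 1.52 in control (SD, n = 6 each). On the log2 scale it was 3.61 ± 0.13 in PPHN and 2.63 ± 0.35 in control, a difference of 0.98, or 1.98-fold. Put as a share, miR-26b made up 7.60 ± 0.666% of the summed counts of both forms in PPHN and 14.2 ± 2.87% in control. Control 3 and control 4, the controls with the most miR-26a after TMM scaling, also had the highest control ratios. On that scale their miR-26b was not low among the controls, while on unscaled library totals control 3 had the lowest, at 2273 CPM. Without control 2, PPHN 8 and PPHN 11 the ratio was 11.7 ± 0.904 in PPHN (n = 4) and 6.65 ± 1.43 in control (n = 5). Leaving out libraries could not bring about an overlap, since there was none among all 12.

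The summed level of both forms, which carry the same seed, showed less of a difference. This sum largely repeats miR-26a, since miR-26b made up 7.60% of it in PPHN and 14.2% in control on average. The sum averaged 25287 ± 1564 CPM in the PPHN group and 20313 ± 5036 CPM in the control group (SD, n = 6 each). Of the 6 PPHN libraries, 5 lay inside the control range of 15316 to 26610 CPM. As a share of all counts in a library, both forms together took 2.00 to 2.97% in PPHN and 1.56 to 2.90% in control.

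**Figure D2:**
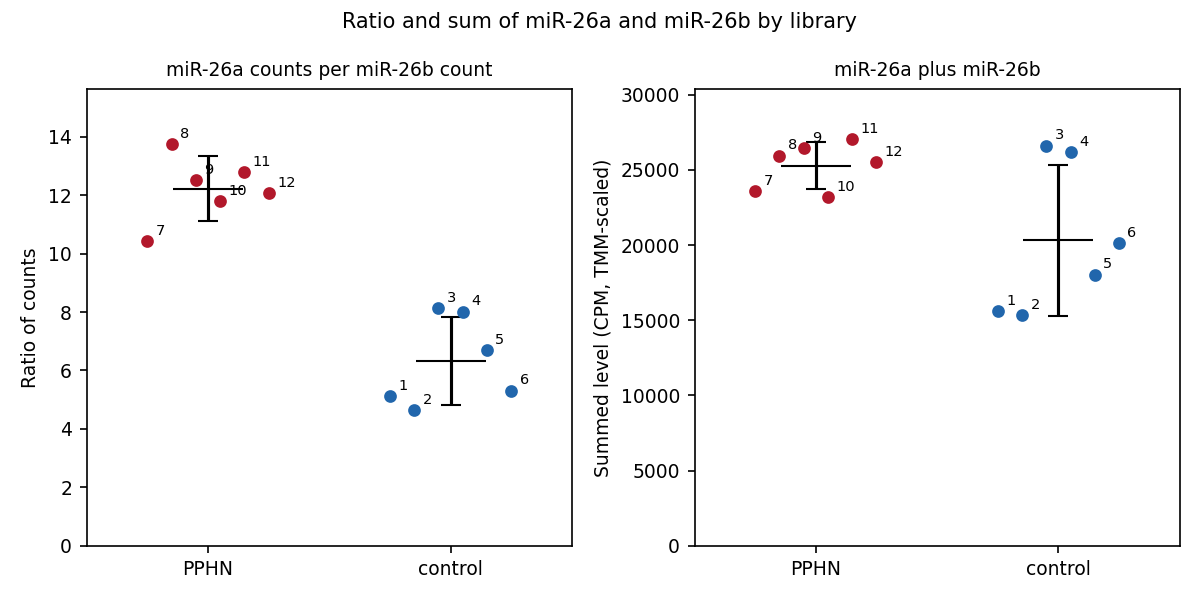
Counts of oar-miR-26a per count of oar-miR-26b (left, a ratio without scaling) and the summed level of both in CPM (right), on linear axes from 0; each point is 1 library with its number, and the line and bars are the group mean and SD (n = 6). The ratio separates PPHN (10.4 to 13.8) from control (4.65 to 8.12), while the sums overlap. The selection of the family on these levels favours the separation of the ratio.

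The cow-named entry bta-miR-26c nearly repeated oar-miR-26a. Its count was 91.9 to 94.4% of the miR-26a count in PPHN libraries and 91.1 to 94.7% in control libraries. The log2 fold change was 0.42 (SE 0.18), with 21798 ± 1529 CPM on average in PPHN libraries and 16336 ± 4716 CPM in control libraries (SD, n = 6 each). Whether the same reads were counted in both entries was not tested, so bta-miR-26c is not treated as a separate measurement and was left out of the sum above.

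The 3p arm of miR-26a-1, the strand of the hairpin that is mostly discarded, was close to the limit of detection. It had 46, 0, 29, 25, 5 and 15 counts in PPHN 7 to 12, against 38, 28, 21, 68, 55 and 10 counts in control 1 to 6. The level was 2.79, 0, 3.71, 4.71, 2.02 and 3.31 CPM in PPHN 7 to 12 and 8.09, 5.53, 3.36, 5.50, 5.24 and 2.29 CPM in control 1 to 6. The 0 in PPHN 8 allows up to 1.13 CPM before scaling by the limit of 3 counts, and up to 1.39 CPM by the two-sided exact 95% interval. The groups overlapped. The mean was 2.76 ± 1.62 CPM over the PPHN and 5.00 ± 2.01 CPM over the control libraries (SD, n = 6 each). The log2 fold change was -0.83 (SE 0.59), and -0.59 (SE 0.37) without PPHN 8. Relative to oar-miR-26a, the 3p arm had 0 to 220.3 counts per 1000000 counts in PPHN libraries and 135 to 620 in control libraries. The name oar-miR-26a gives no copy number, so this need not be a ratio of the arms of 1 hairpin. None of the 470 entries carried the name miR-1297 or miR-4465, human miRNAs with the seed of miR-26.

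**Figure D3:**
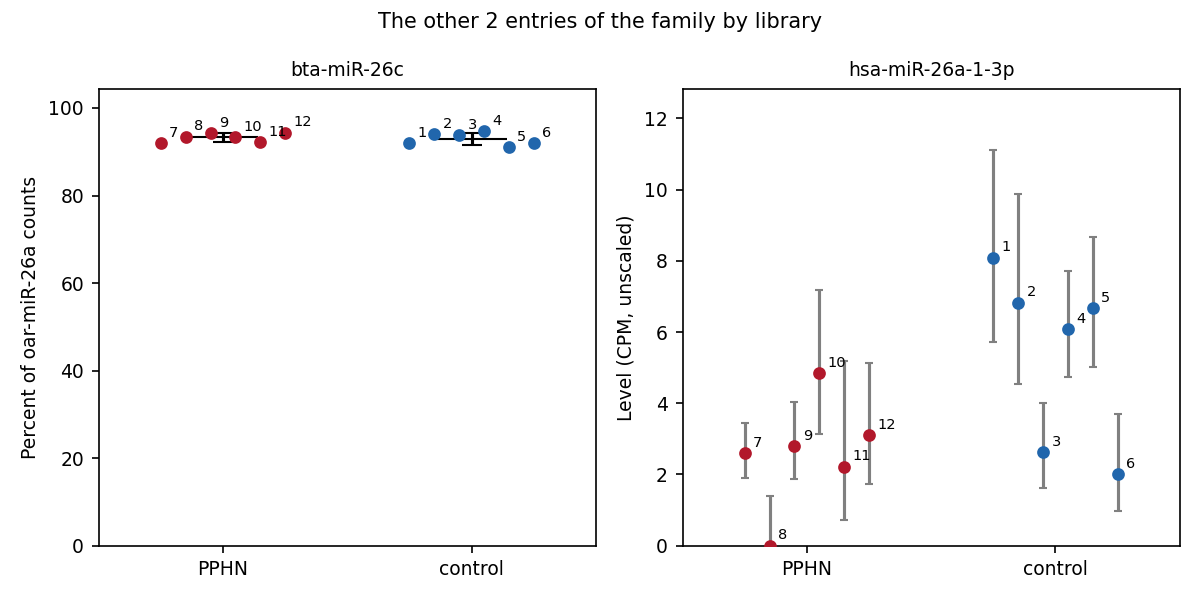
Count of bta-miR-26c as a percentage of the oar-miR-26a count with group mean and SD (left), and level of hsa-miR-26a-1-3p in CPM of the unscaled library total with exact 95% intervals (right); each point is 1 library with its number. The share of bta-miR-26c stays between 91.1 and 94.7%, and the 3p arm ranges from 0 in PPHN 8 to 8.09 unscaled CPM in control 1.

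miR-26b was among the steadiest miRNAs of these cultures within each group. The family was selected on these levels, and groups 1.44-fold apart are separate only where the spread is small. The steadiness of miR-26b is thus not independent of that selection. The SD of log2 CPM was 0.08 in PPHN, the smallest of 324 entries with a mean of at least 10 CPM, and 0.16 in control, the third smallest (rank 3), while the median entry had 0.58 in PPHN and 0.67 in control. For miR-26a the SD was 0.10 in PPHN (rank 4 of 324) and 0.40 in control (rank 81). These ranks moved with the scaling: on unscaled library totals, miR-26b ranked 7 in PPHN and 8 in control, and miR-26a ranked 19 in PPHN and 24 in control. The SD of the log2 ratio of both forms within groups was 0.26, against 0.29 for miR-26a alone and 0.13 for miR-26b alone.

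Likeness to a member was measured as the SD over the 12 libraries of the log2 ratio of an entry to it, where a small SD means a nearly constant ratio. All libraries share their scaling, and steady entries score well against a steady member. The SD also takes in the difference between the groups, so the entries nearest to a member tend to share its difference. A separation of their groups is thus no independent result. Over all 468 tested entries, 6 (1.28%) did not overlap between groups. The SD of the ratio of miR-26a to miR-26b was 0.57. Of the 321 other entries with a mean of at least 10 CPM, 93 had a steadier ratio to miR-26a than miR-26b did, and 102 had a steadier ratio to miR-26b than miR-26a did.

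The steadiest ratio to miR-26b was that of oar-miR-30b, from the miR-30 family, with an SD of 0.11. Its level was 292 to 345 CPM in PPHN (median 311) and 391 to 536 CPM in control (median 438), without overlap, which the choice by likeness to miR-26b favours. The next was bta-miR-342, known from an intron of EVL in human, with an SD of 0.21, at 299 to 444 CPM in PPHN and 469 to 715 CPM in control, also without overlap. The others were oar-miR-30d (SD 0.24), oar-miR-191 (0.25) and oar-miR-16b (0.27), the last from the miR-16 family that represses cell-cycle genes. Their groups overlapped.

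For miR-26a the steadiest ratio was that of bta-miR-361, known from an intron of CHM in human, with an SD of 0.19. It stood at 167 to 231 CPM in PPHN (median 188) and 81.5 to 163 CPM in control (median 137), and these ranges did not overlap. The very abundant oar-miR-22-3p followed, with its near copy bta-miR-3600, each with an SD of 0.21. oar-miR-22-3p averaged 98581 ± 7915 CPM in PPHN libraries and 81563 ± 23946 CPM in control libraries (SD, n = 6 each), so that, like miR-26a, its SD was smaller in PPHN than in control. The last were oar-miR-374b and oar-miR-374a, both with an SD of 0.25. Over the 9 libraries without control 2, PPHN 8 and PPHN 11, 2 of these 5 entries stayed among the 5 nearest to miR-26a (bta-miR-3600 and oar-miR-22-3p), and 3 of 5 for miR-26b (oar-miR-30b, bta-miR-342 and oar-miR-16b).

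**Figure D4:**
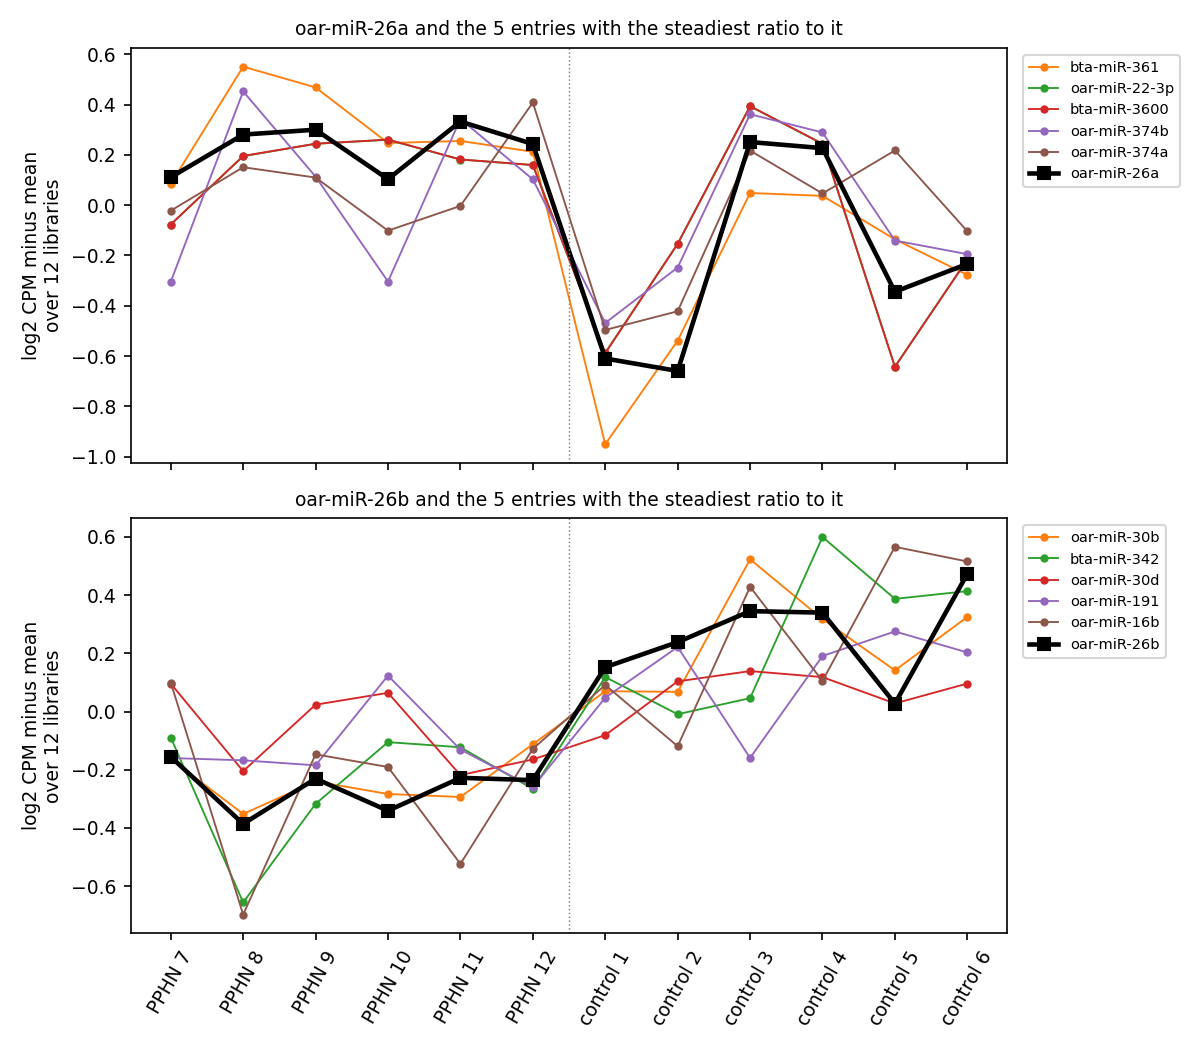
log2 CPM minus its mean over the 12 libraries for oar-miR-26a (top) and oar-miR-26b (bottom), each in black with the 5 entries whose ratio to it was steadiest; a dotted line divides PPHN from control libraries. The lines of bta-miR-3600 and oar-miR-22-3p coincide. miR-26a and its neighbours dip in control 1, and miR-26b lies below its mean in all 6 PPHN libraries and above it in all 6 control libraries.

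Other miRNAs known for the same roles were described beside the family, from 2 lists drawn up with earlier results of these data known. All tested entries together had 213 higher (45.5%) and 255 lower (54.5%) in PPHN by the sign of the log2 fold change, with a median of -0.08, and edgeR called 0 entries in each list. Of 17 other entries under names of miRNAs known to repress EZH2, whatever the arm, 9 were higher and 8 lower in PPHN. Their median log2 fold change was 0.00 and took either sign with the scaling. With upper-quartile scaling 5 were higher and 12 lower, and on unscaled library totals 4 and 13. Without PPHN 9, 5 were higher and 12 lower. Of the 17 entries, 5 are miR-214, with 1 for its 5p arm (hsa-miR-214-5p) and 4 others under names of several species that may not be separate miRNAs. Since the arm was ignored, the list also holds hsa-let-7e-3p, which gave the median. Whether that arm or hsa-miR-214-5p represses EZH2 is not known here. The most abundant of the list were oar-let-7f (50253 ± 9104 CPM in PPHN, 49395 ± 6847 CPM in control), oar-let-7i (23613 ± 8196 CPM in PPHN, 26237 ± 17524 CPM in control) and oar-let-7a (18321 ± 1474 CPM in PPHN, 16907 ± 1884 CPM in control), members of the let-7 family that restrains growth genes (SD, n = 6 each).

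Of 12 other entries under names of hypoxia-induced miRNAs, whatever the arm, 5 were higher and 7 lower, with a median of -0.25. They include ssc-miR-24-1-5p, rno-miR-27b-5p and mmu-miR-210-5p. The count moved with single libraries: 2 were higher and 10 lower without control 4, and 3 were higher and 9 lower without control 1 or without PPHN 8. The most abundant of them were oar-miR-27a (44051 ± 6607 CPM in PPHN, 42101 ± 17732 CPM in control), oar-miR-181a (5852 ± 1539 CPM in PPHN, 7389 ± 4002 CPM in control) and oar-miR-103 (1735 ± 322 CPM in PPHN, 2445 ± 493 CPM in control) (SD, n = 6 each). The ranges of all 6 entries named from the lists overlapped between the groups.

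**Figure D5:**
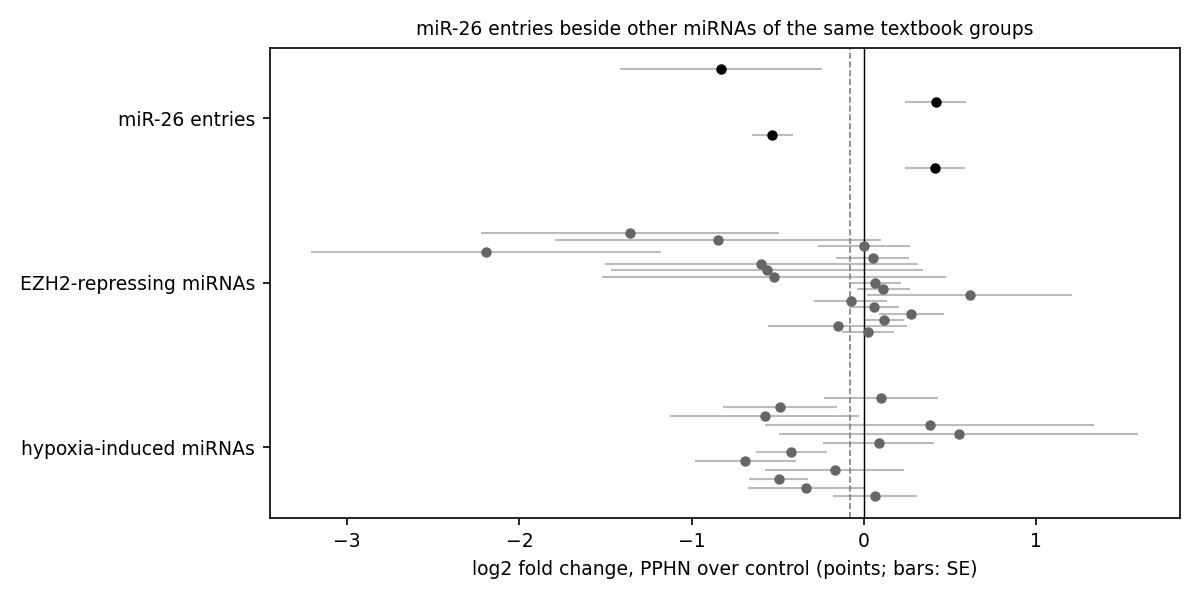
log2 fold change of PPHN over control with its SE for the 4 miR-26 entries (from the top: hsa-miR-26a-1-3p, bta-miR-26c, oar-miR-26b, oar-miR-26a) and for the other entries of the 2 lists; the solid line marks 0 and the dashed line the median of all tested entries, -0.08. miR-26a (0.41) and miR-26b (-0.53) lie on opposite sides of 0.

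Markers of other cell types were summed in the same libraries. The fibroblast list (miR-199a, miR-199b and miR-214) had 8 of 8 entries lower in PPHN, against 54.5% of all tested entries. Of these 8, 5 are the entries of miR-214, which may not all be separate miRNAs. Another, bta-miR-3604, followed oar-miR-199a-3p over the libraries (77.6 to 4877 CPM against 55.4 to 4118 CPM in PPHN). The 8 are thus not 8 separate observations. SEs were wide, with log2 fold changes of -0.78 (SE 0.74) for oar-miR-199a-3p and -0.52 (SE 1.00) for bta-miR-214. The summed level of the list was 135 to 9619 CPM in PPHN, lowest in PPHN 11, and 3223 to 19404 CPM in control. In the blood list 2 of 2 entries, bta-miR-486 and bta-miR-451, were lower, with sums of 15.4 to 203 CPM in PPHN and 69.0 to 900.4 CPM in control, and miR-144 and miR-223 had no entry among those analysed here. The smooth muscle list, led by miR-143, had sums of 2158 to 253906 CPM in PPHN and 2212 to 301452 CPM in control from miR-143 and miR-145. Of its 3 entries 1 was higher and 2 were lower in PPHN, and the same held for the 3 entries named miR-126 without a letter. Of those with a letter, ipu-miR-126a (log2 fold change 0.50) and mmu-miR-126b-5p (0.39) were higher and the abundant mmu-miR-126b-3p (-0.45) was lower. Of muscle entries outside the list, oar-miR-133 (0.59) and rno-miR-133c (0.10) were higher and mmu-miR-145a-3p (-0.06) was lower. Of the muscle miRNA miR-133, oar-miR-133 ran from 1.62 to 195 CPM in PPHN and from 3.80 to 133 CPM in control, and rno-miR-133c from 1.00 to 44.2 CPM in PPHN and from 2.02 to 55.6 CPM in control, while miR-1 had no entry analysed here. Of the epithelial list 1 name, miR-200b, had an entry, at 29.5 to 150 CPM in PPHN (median 62.4) and 0 to 398 CPM in control (median 0.21). The high end of the controls was control 4 alone, and the other 5 controls, at 0 to 4.74 CPM, lay below all PPHN libraries. With control 4 kept, the groups overlapped and the log2 fold change was 0.13 (SE 1.74). How many other entries would separate with 1 library set aside was not counted. In the libraries with little miR-126, miR-26a stood at 24186 CPM in PPHN 8, 25070 CPM in PPHN 11, the highest of PPHN, and 12607 CPM in control 2, the lowest of the controls. miR-26b stood at 1757 CPM in PPHN 8, the lowest of PPHN, 1961 CPM in PPHN 11 and 2709 CPM in control 2. The part of these markers in the levels of miR-26 was not tested.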

How the data were processed

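Small RNA libraries were made with a TruSeq kit, per the labels' protocols. The authors deposited raw counts per miRNA entry, per the file headers. The submitters' processing notes list Bowtie 1.1.1 and Trim Galore 0.2.5. Settings, miRNA reference and build: not given in the sources used here, so how reads matching several entries were counted is unknown. The authors also deposited p-values, q-values and log2 fold changes from DESeq, DESeq2 and edgeR.

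From the counts, edgeR 4.0.16 in R 4.3.3 (filterByExpr, TMM, robust quasi-likelihood fit) was run on all entries, with Benjamini-Hochberg adjustment and a threshold of 0.05. The SE was derived from the fold change and its F statistic. log2 CPM used a prior count of 2. Ratios used counts without a pseudocount. Intervals are exact (Clopper-Pearson, 95%). The fit was tested on simulated data. Members, lists and named entries (members, the 5 nearest to each form, the 3 most abundant of each list, cell markers) were chosen with earlier results of these data known. Alternatives were other scalings and filters, DESeq2 1.42.0, limma-voom (limma 3.58.1), and leaving out libraries. Leaving out the 10 most abundant entries, or bta-miR-26c, or PPHN 8 for the 3p arm, ranking spread on unscaled totals, and cell markers under any letter of their number were added after seeing the data. 1 further list of miRNAs is not reported here.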

Additional observations from a re-analysis of the deposited data

Results flagged for a closer look

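Dixon's test set 1 library apart from the rest of its group in 7 of the 70 groups examined, each of 6 libraries; about 5% of groups are set apart by chance. None of the 7 was a level or ratio of a miR-26 entry. PPHN 7 had 83385 CPM of oar-miR-22-3p, below the 98223 to 105313 CPM of the remaining PPHN libraries, and 82851 CPM of its near copy bta-miR-3600. PPHN 10 had 9599 CPM of oar-miR-191, above a range of 7359 to 8048 CPM, and 195 CPM of bta-miR-486, above a range of 15.0 to 73.9 CPM. PPHN 8 had 2351 CPM of oar-miR-103, above a range of 1437 to 1764 CPM. Control 3 had 8334 CPM of oar-miR-199a-3p, above the 1408 to 3294 CPM of the remaining controls. Control 4 had 398 CPM of oar-miR-200b, above a range of 0 to 4.74 CPM.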

How the results depend on the processing

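The log2 fold changes of the 4 miR-26 entries and the log2 ratio of miR-26a to miR-26b kept their direction under every alternative run. For the ratio the direction could not change, since all PPHN ratios were above all control ratios. Only the size of its difference could move. For miR-26b the groups did not overlap with TMM or on unscaled totals. The direction of miR-26b could thus hardly change with libraries left out or on library totals. The fold change lay between 0.27 and 0.53 for miR-26a, between -0.61 and -0.42 for miR-26b, between 0.28 and 0.53 for bta-miR-26c and between -1.14 and -0.50 for the 3p arm, and the difference in log2 ratio between 0.78 (ratio of group sums) and 1.06. With 1 library left out, the ranges were 0.32 to 0.51 for miR-26a, -0.58 to -0.49 for miR-26b, 0.32 to 0.52 for bta-miR-26c and 0.90 to 1.06 for the log2 ratio. The number of called entries was 0 with edgeR and 12 with DESeq2, and 0 to 1 with 1 library left out (1 without PPHN 8); the cause was not tested. Without control 2, PPHN 8 and PPHN 11, 2 of the 5 entries nearest to miR-26a and 3 of those nearest to miR-26b were kept, over fewer libraries. The median log2 fold change of all entries was -0.08 with TMM, -0.06 with RLE, -0.14 with upper-quartile scaling, -0.17 on library totals and 0.04 with entries of at least 10 CPM in 6 or more libraries only. The 3p arm did not pass that filter. The median of the EZH2 list ran from -0.13 to 0.14 and that of the hypoxia list from -0.41 to -0.04. No paired analysis was possible because the groups share no replicate numbers.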
